A study of Mus musculus with 12 samples.

Results

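Transcripts of 9 genes that mark dendritic cells were measured in sorted regulatory T cells (Tregs). The genes were Fscn1, Ccl22, Flt3, Wdfy4, Clec7a, Itgax, Zbtb46, Batf3 and Siglech, and they were taken by symbol from the 26609 genes of the deposited count table. All 9 were in the table, and all 9 passed the filter on low counts, which left 13692 genes for testing.

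Dendritic cells take up antigen, carry it to lymph nodes and show it to T cells as peptides on MHC molecules. Conventional dendritic cells grow in response to the cytokine FLT3 ligand, and their mature migratory form bundles actin with fascin and secretes chemokines that attract T cells bearing CCR4, Tregs among them. Plasmacytoid dendritic cells are a separate lineage known for making type I interferon. In a lymph node dendritic cells and Tregs are in close contact.

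The Tregs were sorted as single CD4+CD25hiCD127lo cells from mesenteric lymph nodes of untreated SAMP/YitFC mice, a line that develops inflammation of the small intestine. The mice were wild type (SAMP/YitFC-WT, written WT) or lacked estrogen receptor beta (SAMP/YitFC-ERb-KO, written KO), the receptor encoded by Esr2, and were titled male or female. Each of the 4 combinations of titled genotype and sex had 3 libraries, and the design asks how the receptor and sex relate to Treg transcripts. The labels give neither the age of the mice nor how Esr2 was disrupted. Nor do they state that the libraries are from different mice, and the p-values here cover no more than library-to-library spread, which may be technical.

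Libraries held 10.2 to 16.7 M counts, and 3 counts, the limit that a count of 0 allows, came to 0.176 to 0.287 CPM (counts scaled to library size). Markers of the labelled cell were present in every library. Foxp3, the defining Treg transcription factor, was at 583.5 to 930.3 CPM, and Il2ra, which encodes CD25, at 521.6 to 1008 CPM. Cd3e was at 582 to 1194 CPM and Cd4 at 465 to 744 CPM. These levels do not measure the purity of the sort, which was not tested. Esr2 did not follow the titled genotype, with 0 to 159 counts in libraries titled WT and 2 to 161 in those titled KO. Xist and Y-linked transcripts went against the titled sex in 4 libraries, which were WT female 2, KO male 1, KO male 2 and KO female 1. Groups below are therefore the groups as titled, and the KO to WT values of the members are given with and without these 4 libraries. The fit without them left KO male 3 alone in its group. For the average over the titled sexes it called far fewer genes of any kind, so a call lost there is not particular to a gene.

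All 9 genes were at low levels beside the markers of the sorted cell. The 108 values (9 genes in 12 libraries) ran from 0 to 35.1 CPM, and 7 of them were 0. In such bulk libraries, fewer cells of a type and less RNA per cell cannot be told apart. Levels of different genes were compared only per kilobase of exon, as the mean over 12 libraries. On that scale Fscn1 was highest at 3.26 CPM per kb, ahead of Ccl22 at 1.62, Siglech at 0.994 and Wdfy4 at 0.881. Zbtb46 followed at 0.465, Batf3 at 0.440, Itgax at 0.387, Clec7a at 0.316 and Flt3 at 0.283. The spread of each gene over the libraries was wide, with a coefficient of variation between 52.8% for Zbtb46 and 108.6% for Ccl22. Differences between neighbours in this order were not tested. For scale, Foxp3 stood at 164.8 CPM per kb.

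**Figure D1:**
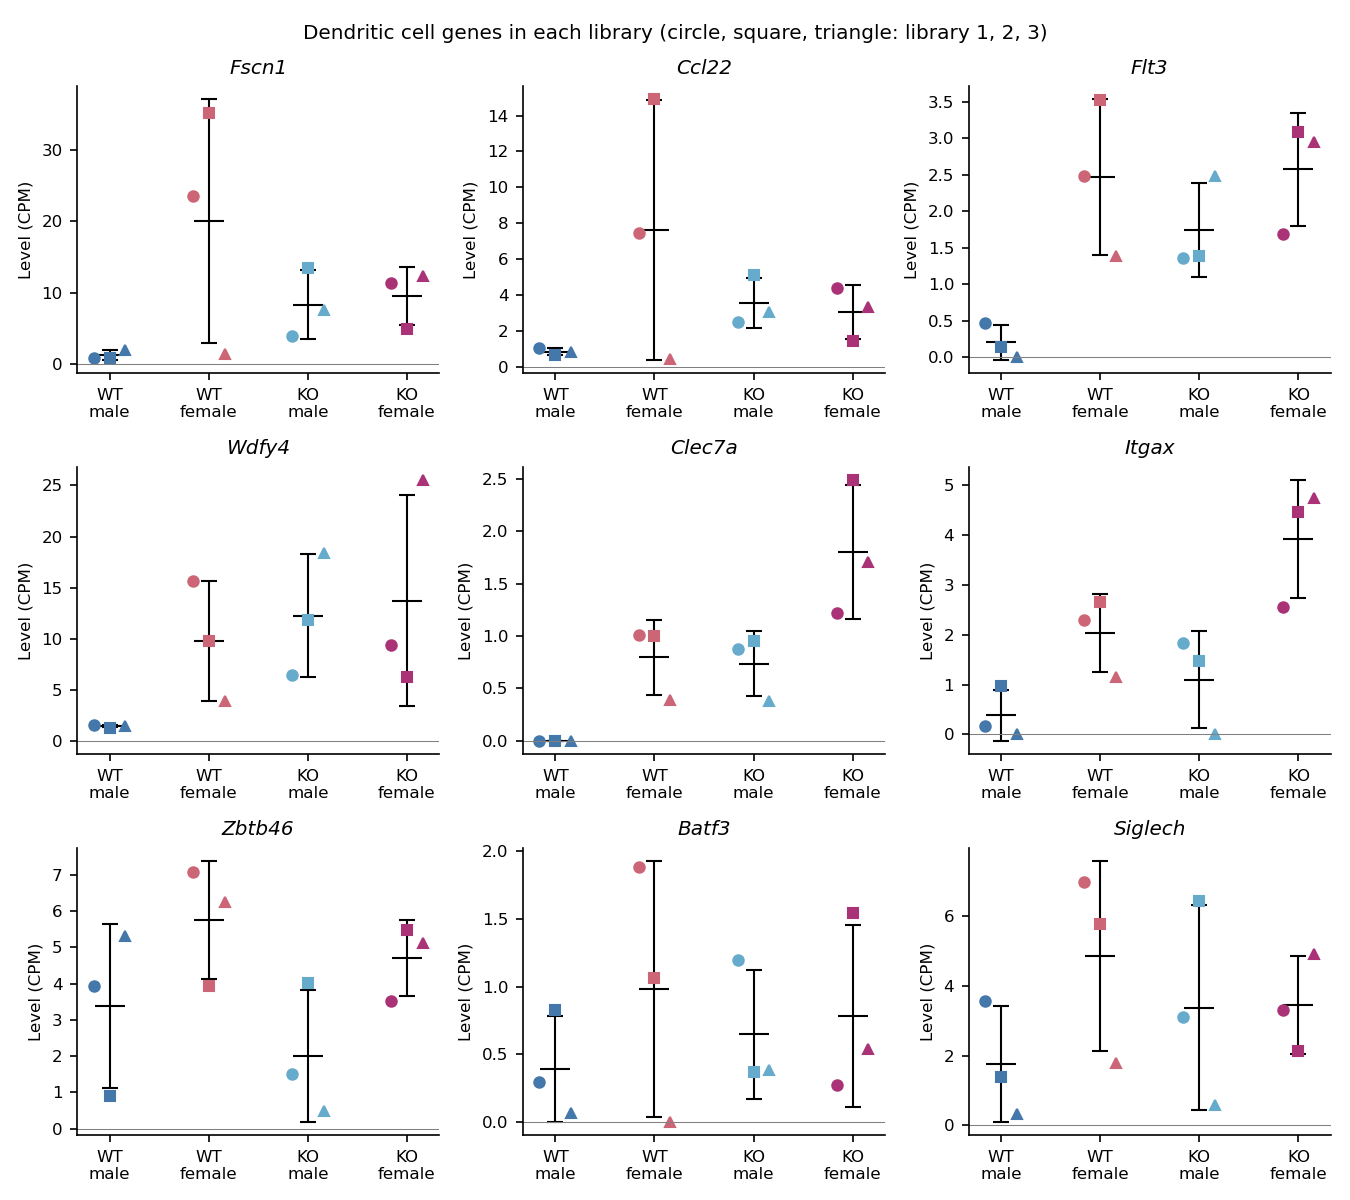
CPM of the 9 dendritic cell genes in each of the 12 libraries, grouped by titled genotype and sex, on separate axes for each gene. Circle, square and triangle are libraries 1, 2 and 3, and the bars give the mean and SD of each group. The 3 WT male libraries lie at the low end for Fscn1, Ccl22, Flt3, Wdfy4 and Clec7a, and WT female 3 (triangle) lies apart from WT female 1 and 2 for Fscn1 and Ccl22.

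Fscn1 and Ccl22 belong to the mature, migratory state. Fscn1 (chromosome 5, 142960343 to 142973185, plus strand, GRCm38, protein coding) encodes fascin, which bundles actin filaments in the long extensions of mature dendritic cells. Ccl22 (chromosome 8, 94745590 to 94751699, plus strand) encodes a chemokine that binds CCR4. The promoter windows of both genes are shown because they were the 2 members whose levels were most alike over the libraries. The 300-base windows come from RefSeq (GRCm38.p6) and are written 5′ to 3′ on the plus strand, Fscn1 at chr5:142960105-142960404 and Ccl22 at chr8:94745434-94745733. Capitals mark matches to TGACGTCA, the cyclic AMP response element, and to GGGACTTT, the start of one form of the NF-kB site. Both motifs were chosen after these windows had been seen.
Fscn1 promoter: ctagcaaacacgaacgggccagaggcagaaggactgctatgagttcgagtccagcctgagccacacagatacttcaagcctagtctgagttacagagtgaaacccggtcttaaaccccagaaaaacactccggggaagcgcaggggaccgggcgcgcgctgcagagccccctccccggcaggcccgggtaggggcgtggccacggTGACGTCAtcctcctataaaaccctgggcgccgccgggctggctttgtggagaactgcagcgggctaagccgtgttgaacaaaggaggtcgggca
Ccl22 promoter: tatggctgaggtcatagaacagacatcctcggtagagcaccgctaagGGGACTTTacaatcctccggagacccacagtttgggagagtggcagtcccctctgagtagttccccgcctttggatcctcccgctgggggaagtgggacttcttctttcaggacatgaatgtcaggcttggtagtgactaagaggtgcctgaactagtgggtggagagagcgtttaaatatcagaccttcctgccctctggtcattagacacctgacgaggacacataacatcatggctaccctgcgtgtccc
The element TGACGTCA was present on either strand in 1.79% of all 32851 promoter windows of this length, and GGGACTTT in 1.38%. Neither marked motif occurred in the window of the other gene. A match describes these letters and is not a site at which binding was measured.

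Fscn1 was at 0.938, 0.827 and 2.05 CPM in WT males 1 to 3. It was at 23.5, 35.1 and 1.47 CPM in WT females 1 to 3. The WT females thus held both the highest library of all and one within the range of the WT males. In KO males Fscn1 was at 3.92, 13.5 and 7.65 CPM, and in KO females at 11.4, 4.97 and 12.4 CPM. Every KO library lay above every WT male library, and all 6 lay below WT female 1 and 2. Ccl22 showed a similar order of libraries.

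Ccl22 was at 1.06, 0.689 and 0.832 CPM in WT males and at 7.47, 14.9 and 0.464 CPM in WT females. In KO males it was at 2.48, 5.12 and 3.06 CPM, and in KO females at 4.39, 1.46 and 3.31 CPM. Again WT female 2 was highest and WT female 3 was the lowest library. The ratio of Fscn1 to Ccl22 counts stayed between 0.889 and 3.73, while Fscn1 itself ranged 42.5-fold and Ccl22 32.2-fold. Neither gene passed the test for KO minus WT averaged over the titled sexes (Fscn1 log2 fold change 0.83, SE 0.54, adjusted p = 0.49; Ccl22 0.37, SE 0.55, adjusted p = 0.794; edgeR quasi-likelihood test, Benjamini-Hochberg over all genes). The fitted average is on the log scale, and by mean CPM the KO to WT ratio was below 1 for both, at 0.841 for Fscn1 and 0.779 for Ccl22.

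In titled males the KO libraries lay above all WT libraries for both genes, yet neither passed. The log2 fold change was 2.71 (SE 0.82, adjusted p = 0.165, edgeR) for Fscn1 and 2.04 (SE 0.82, adjusted p = 0.28, edgeR) for Ccl22. Without the 4 libraries against their titled sex these became 2.57 (adjusted p = 0.199) and 1.82 (adjusted p = 0.348), with KO male 3 alone in its group.

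Flt3, Wdfy4 and Clec7a were each lower in all 3 WT male libraries than in all 9 others. Flt3 (chromosome 5, 147330741 to 147400489, minus strand) encodes the receptor tyrosine kinase through which FLT3 ligand drives the growth of dendritic cells and their progenitors. It overlaps Gm26597 on the other strand, and because the library kit does not mark strand, reads of the shared stretch cannot be told apart. Flt3 was at 0.469, 0.138 and 0 CPM in WT males and at 2.49, 3.53 and 1.39 CPM in WT females. It was at 1.36, 1.39 and 2.48 CPM in KO males and at 1.69, 3.09 and 2.96 CPM in KO females. The lowest of the 9 other libraries, KO male 1, stood clear of WT male 1, the highest of its group. Averaged over the titled sexes the log2 fold change was 1.55 (SE 0.56) and missed the threshold (adjusted p = 0.184, edgeR). DESeq2 called it for the average, as it did 4.73% of all genes, and in males. The edgeR value without the 4 libraries was 2.09 (adjusted p = 0.182).

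Wdfy4 (chromosome 14, 32959547 to 33185508, minus strand) encodes a protein known for its need in cross-presentation of cell-associated antigen by type 1 conventional dendritic cells, and it is also active in B cells. It overlaps Lrrc18 on the other strand. Wdfy4 was at 1.52, 1.31 and 1.47 CPM in WT males, the tightest of its groups. It was at 15.6, 9.79 and 3.94 CPM in WT females, 6.48, 11.9 and 18.4 CPM in KO males, and 9.39, 6.26 and 25.5 CPM in KO females. WT males stood below all other libraries, while the other groups overlapped one another. The 6 KO libraries averaged 13.0 ± 7.60 CPM and the 6 WT libraries 5.61 ± 5.87 CPM (SD).

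Wdfy4 was higher in KO than in WT averaged over the titled sexes, with a log2 fold change of 1.80 (SE 0.40, adjusted p = 0.0399, edgeR). The call was lost on leaving out any one of WT male 1, 2 or 3, WT female 1, 2 or 3, KO male 3, KO female 1 or KO female 3, with adjusted p from 0.0511 to 0.126. It was also lost without the 4 libraries against their titled sex (2.19, adjusted p = 0.0782), with WT male 2 and 3 summed (1.78, adjusted p = 0.0912) and with limma voom (1.66, adjusted p = 0.19).

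Clec7a (chromosome 6, 129461591 to 129472779, minus strand, annotated as a polymorphic pseudogene in GENCODE) encodes dectin-1, a receptor for fungal beta-glucans. It was undetected in all 3 WT male libraries and detected in all 9 others. Its counts were 15, 15 and 5 in WT females, 11, 13 and 4 in KO males, and 18, 29 and 19 in KO females. In CPM these were 1.01, 0.999 and 0.386, then 0.880, 0.951 and 0.382, then 1.22, 2.49 and 1.70. KO females lay above every other library. In WT males a total of 0 allows 3 counts over the group (0.0636 CPM). The pooled level was 12.02 times that limit in KO males (0.764 CPM) and 12.9 times in WT females (0.817 CPM). These ratios leave out the spread of KO males and WT females, so they are not lower bounds. Most KO male counts came from KO male 1 and 2, both against their titled sex, and KO male 3 was at 0.382 CPM.

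Averaged over the titled sexes, Clec7a was higher in KO with a fitted log2 fold change of 3.77 (SE 0.76, adjusted p = 0.0325, edgeR). That fitted value depends on how zeros are handled, and the ratio of mean CPM was 3.18, from 94 counts in 6 KO libraries against 35 in 6 WT libraries. The call was lost on leaving out any one of WT male 1, 2 or 3, WT female 1, 2 or 3, KO male 1, KO female 1 or KO female 3, with adjusted p from 0.0507 to 0.104. It was lost too without the 4 libraries against their titled sex (3.49, adjusted p = 0.154) and with WT male 2 and 3 summed (3.83, adjusted p = 0.0648).

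Itgax (chromosome 7, 128129547 to 128150657, plus strand) encodes CD11c, the integrin alpha chain most used to mark dendritic cells. It was at 0.176, 0.964 and 0 CPM in WT males and at 2.29, 2.67 and 1.16 CPM in WT females. It was at 1.84, 1.46 and 0 CPM in KO males and at 2.57, 4.46 and 4.75 CPM in KO females. WT females lay above WT males, and KO females above KO males, and the KO to WT difference averaged over the titled sexes was 1.25 (SE 0.74, adjusted p = 0.444, edgeR). Without the 4 libraries it was -1.97 (adjusted p = 0.578), with KO male 3, at 0 counts, alone in its group.

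Zbtb46 and Batf3 are transcription factors of the conventional lineage. Zbtb46 (chromosome 2, 181387762 to 181459426, minus strand, with Gm22708 inside it on the same strand) encodes a zinc finger factor of conventional dendritic cells. It was at 3.93, 0.896 and 5.31 CPM in WT males and 7.06, 3.93 and 6.26 CPM in WT females, against 1.52, 4.02 and 0.478 CPM in KO males and 3.51, 5.49 and 5.11 CPM in KO females. The groups overlapped, and Zbtb46 was the one member with a negative fitted KO to WT difference averaged over the titled sexes (log2 fold change -0.51, SE 0.46, adjusted p = 0.638, edgeR). It was -1.57 (adjusted p = 0.213) without the 4 libraries.

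Batf3 (chromosome 1, 191097847 to 191108945, plus strand) encodes a leucine zipper factor that type 1 conventional dendritic cells depend on. Its values were 0.293, 0.827 and 0.064 CPM in WT males and 1.88, 1.07 and 0 CPM in WT females. They were 1.20, 0.366 and 0.382 CPM in KO males and 0.27, 1.54 and 0.537 CPM in KO females. The groups overlapped, and the highest library was WT female 1 and the lowest WT female 3, of the same group. The difference averaged over the titled sexes was 0.20 (SE 0.83, adjusted p = 0.934, edgeR), and 0.05 (adjusted p = 0.997) without the 4 libraries.

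Siglech (chromosome 7, 55768178 to 55778925, plus strand) encodes a sialic acid binding lectin of plasmacytoid dendritic cells. It was at 3.58, 1.38 and 0.320 CPM in WT males and at 6.996, 5.80 and 1.78 CPM in WT females. It was at 3.12, 6.44 and 0.573 CPM in KO males and at 3.31, 2.14 and 4.93 CPM in KO females. No pair of groups was separate, and the difference averaged over the titled sexes was 0.23 (SE 0.57, adjusted p = 0.883, edgeR). The value was -0.95 (adjusted p = 0.576) without the 4 libraries.

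The promoter window of Itgax (chr7:128129300-128129599, plus strand, GRCm38.p6) is shown because it held one of the motifs listed with the members, TGANTCA, the AP-1 site bound by dimers of Jun, Fos and Batf factors. Capitals mark the match.
Itgax promoter: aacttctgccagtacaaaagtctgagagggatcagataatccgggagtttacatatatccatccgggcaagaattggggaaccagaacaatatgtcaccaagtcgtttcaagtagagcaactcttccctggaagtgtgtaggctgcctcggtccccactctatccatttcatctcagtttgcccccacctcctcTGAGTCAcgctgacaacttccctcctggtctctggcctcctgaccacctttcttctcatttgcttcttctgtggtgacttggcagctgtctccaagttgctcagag
TGANTCA was present on either strand in 7.81% of all promoter windows, and in the windows of 2 of the 9 members, Itgax and Zbtb46. The RefSeq windows of 3 members (Wdfy4, Zbtb46 and Batf3) lie around a start inside the GENCODE gene and do not hold its annotated 5′ end, so they are not printed. The other 3 listed motifs had no match in any of the 10 windows of the 9 members. These were GAGGAAGT, a site type of PU.1 held by 3.20% of all windows, the interferon-stimulated response element core (GAAA and, after any pair of bases, GAAA again) held by 3.44%, and an NF-kB site (GGGAC directly followed by TTTCC) held by 0.155%. No match says only that these letters are not in these windows.

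The median difference over the 9 genes was largest in the pairwise comparisons that have WT males on one side. For KO minus WT averaged over the titled sexes, 2 of 9 members passed (Wdfy4 and Clec7a, both higher), and 1.5% of all genes tested did (206 of 13692). The median log2 fold change of the members was 0.83, and that of all genes was 0.02. In titled males none of the 9 passed in edgeR, where 0.073% of all genes did, although 5 of 9 had an unadjusted p under 0.05, a share that was 14.2% over all genes. DESeq2 called 3 of 9 there (Flt3, Wdfy4 and Clec7a) and 3.06% of all genes, and limma with voom weights called 0 of 9 and 0% of all genes. For the average over the titled sexes DESeq2 called 3 of 9 and voom 1 of 9, the latter beside 4.36% of all genes.

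The KO and WT male libraries did not overlap, with KO higher, for 5 of 9 members (Fscn1, Ccl22, Flt3, Wdfy4 and Clec7a), and for 6.82% of all genes. The members' median difference in males was 2.04, beside 0.01 for all genes. The 2 with the smallest adjusted p were Wdfy4 (3.09, SE 0.60, adjusted p = 0.0687, edgeR) and Clec7a (6.36, SE 1.29, adjusted p = 0.0803, edgeR), the latter a fit against 0 counts. Without the 4 libraries Wdfy4 was at 3.67 (adjusted p = 0.0523) and Clec7a at 5.40 (adjusted p = 0.148).

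In titled females none of the 9 passed (0% of all genes did), none had an unadjusted p under 0.05, and DESeq2 and voom called none of the 9, while over all genes DESeq2 called 0.168% and voom 12.4%. At an unadjusted p under 0.05 there were 7.71% of all genes. The median difference was -0.28, with Fscn1 at -1.04 and Ccl22 at -1.30 and adjusted p from 0.737 to 0.994 over the 9 genes (edgeR). Clec7a was the one member for which the KO females lay above all WT females. The share of all genes separated in this way was not computed.

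Titled WT females were higher than titled WT males in the fitted value of all 9 members, with a median of 2.75, but none passed in edgeR (0% of all genes did). At an unadjusted p under 0.05 there were 6 of 9, and over all genes 6.52%. DESeq2 called 5 of 9 (Fscn1, Ccl22, Flt3, Wdfy4 and Clec7a) and 0.219% of all genes, and voom called 2 of 9 (Flt3 and Clec7a) and 2.54% of all genes. In edgeR none of the 9 was called without the 4 libraries either. The groups did not overlap, with females higher, for 4 of 9 (Flt3, Wdfy4, Clec7a and Itgax) and for 7.8% of all genes. This comparison and the one in males share the same 3 WT male libraries, so they are not independent of each other.

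Between titled KO females and KO males the median was 0.25. None of the 9 passed, none had an unadjusted p under 0.05 (5.27% of all genes did), and edgeR, DESeq2 and voom each called 0% of all genes. The KO effect in females less that in males had a median of -2.58 over the members, beside -0.01 for all genes. None of the 9 passed that test (adjusted p from 0.90 to 0.961, edgeR, and 0% of all genes), 5 had an unadjusted p under 0.05 beside 4.81% of all genes, and DESeq2 and voom called none (0.0219% and 0% of all genes). A difference between the sexes in the KO effect was thus not called for any member.

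**Figure D2:**
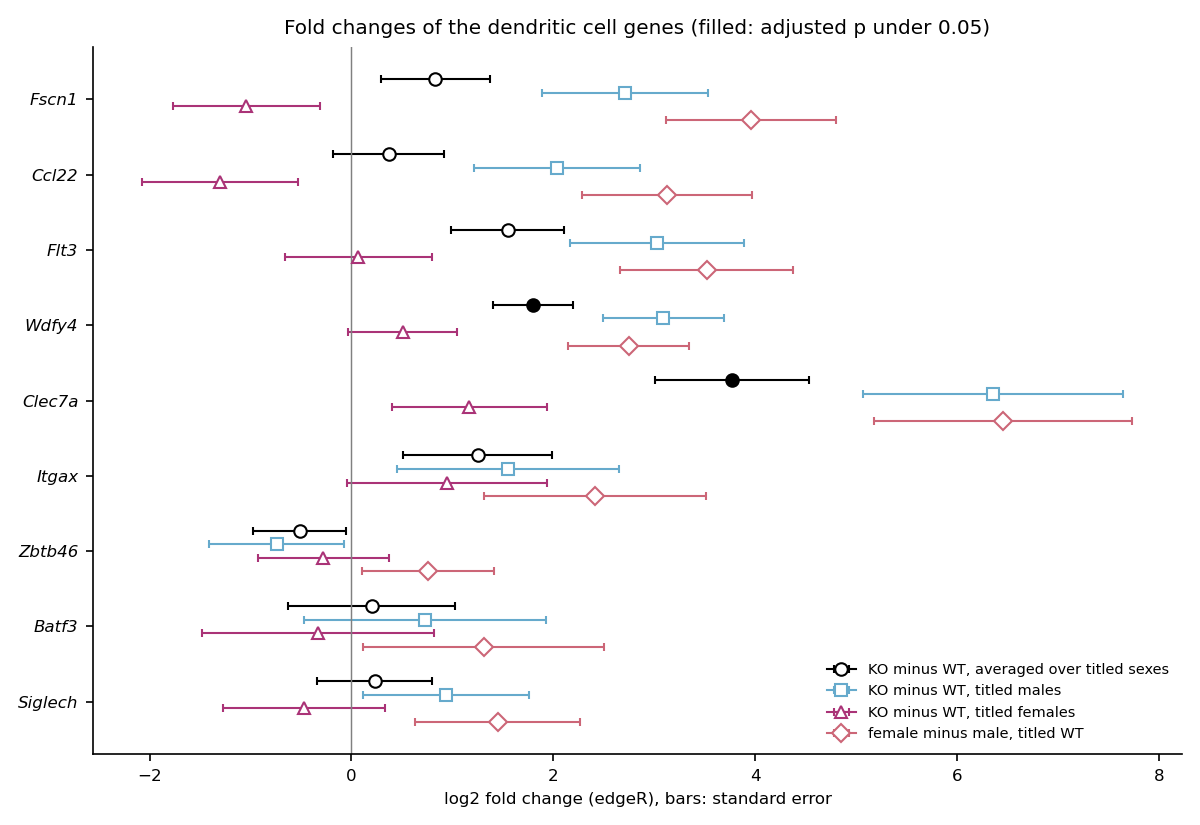
Fitted log2 fold change of each of the 9 genes, with its standard error as a bar, for KO minus WT averaged over the titled sexes, in titled males and in titled females, and for female minus male in titled WT. Filled points passed the threshold. Wdfy4 and Clec7a passed for the average, and the Clec7a values in males and between WT sexes are fits against 3 WT male libraries with 0 counts.

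The level varied within groups as well as between them. Summed over the 9 genes, WT males held 11.96, 7.03 and 10.1 CPM and WT females 68.4, 77.8 and 16.8 CPM. KO males held 22.8, 45.1 and 33.5 CPM, and KO females 37.8, 31.9 and 61.2 CPM. The sum was lowest in the 3 WT males, then in WT female 3, and highest in WT female 1 and 2. WT male 1, 2 and 3 were among the 4 lowest libraries for 7, 8 and 8 of the 9 genes. WT female 1 was among the 4 highest for 8 and held the highest value of Zbtb46, Batf3 and Siglech. WT female 2, whose Y-linked counts went against its title, held the highest value of Fscn1, Ccl22 and Flt3. KO female 3 held that of Wdfy4 and Itgax, and KO female 2 that of Clec7a.

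**Figure D3:**
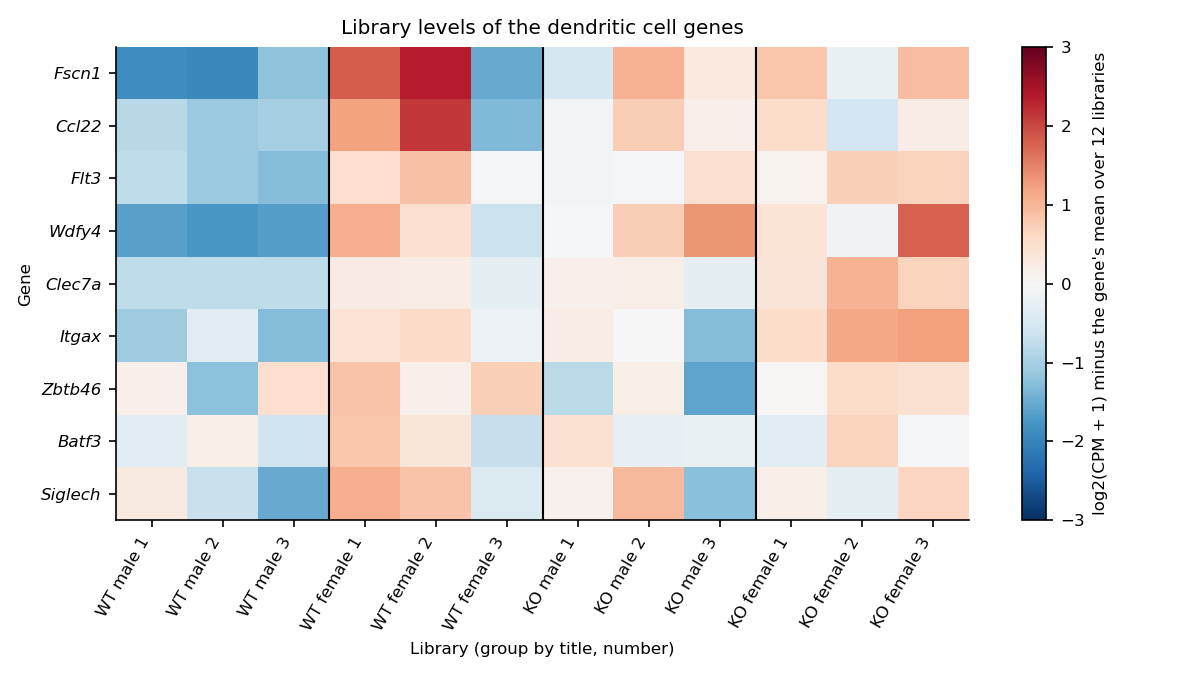
Level of the 9 genes in the 12 libraries as log2(CPM + 1) minus the gene's mean over the libraries, red above and blue below. WT male 1, 2 and 3 are among the 4 lowest libraries for 7, 8 and 8 of the 9 genes, and WT female 1 is among the 4 highest for 8.

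How the members moved together is given as Pearson's r of log2(CPM + 1) over the 12 libraries, which share depth, sort and preparation, so these are descriptions. Fscn1 and Ccl22 were most alike (r = 0.956), followed by Clec7a and Itgax (0.89), Flt3 and Wdfy4 (0.848), Flt3 and Clec7a (0.825), and Fscn1 and Wdfy4 (0.824). For Zbtb46 r ran from -0.005 with Batf3 to 0.417 with Siglech.

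Among the 10917 genes compared that average at least 1 CPM, those most like each member on the same measure were as follows. For Fscn1 they were Ccl22, Lyz1 (r = 0.922) and Apoe (0.91), and for Ccl22 they were Fscn1, Aim1l (0.899) and Pip4k2b (0.887). Flt3 was near Mef2c (0.882) and Cd22 (0.882), the latter a surface protein of B cells. Wdfy4 was nearest Lilrb3 (0.964), Cd22 (0.961) and Csf1r (0.948), the receptor of macrophage growth factor. Siglech was nearest Anxa3 (0.941), Atp8a2 (0.911) and C1qc (0.878), a complement subunit made by macrophages. Itgax was nearest Jup (0.903), Itga2 (0.877) and Slc9a3r2 (0.862). Zbtb46 was nearest genes expressed at higher levels throughout, Nup50 (0.952), Dnajb2 (0.944) and Rnf20 (0.944). Batf3 and Clec7a average under 1 CPM, and no likeness was computed for them.

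Summed B cell markers and summed macrophage and monocyte markers were, like the summed members, lowest in the WT males and WT female 3. The likeness was partial, as B cell markers were at 128 CPM in WT female 2, where the members were highest, and at 372 CPM in KO female 3. The sum of plasma cell markers was highest in WT female 3, at 142 CPM, but Prdm1 alone made up 139 CPM of it. Averaged over the titled sexes, Prdm1 was called lower in KO (log2 fold change -0.78, adjusted p = 0.0424, edgeR). Another marker of that list, 2010001M09Rik, was called higher (4.35, adjusted p = 0.0131, edgeR), with means of 0.798 CPM in WT and 11.5 CPM in KO. The part of other cell types in these results was not tested. B cell markers (10 genes) summed to 39.8 to 65.6 CPM in WT males, 61.2 to 214 in WT females, 168 to 311 in KO males and 174 to 372 in KO females, and 6 of the 10 were called higher for the average over the titled sexes (1 of 10 without the 4 libraries). Ms4a1, which encodes CD20, was at 1.70, 0.138 and 0.768 CPM in WT males, 18.6, 9.33 and 4.25 in WT females, 29.4, 10.2 and 41.7 in KO males, and 16.0, 41.6 and 35.8 in KO females. Every WT male library lay below every other library, and WT female 3 was the lowest of the rest. Ms4a1 (log2 fold change 3.24, SE 0.48, adjusted p = 0.0106, edgeR) and Cd79a (2.06, SE 0.37, adjusted p = 0.0227, edgeR), a subunit of the B cell receptor, were higher in KO for the average over the titled sexes.

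Macrophage and monocyte markers (14 of the 15 listed, 13 tested) summed to 147 to 196 CPM in WT males, 192 to 498 in WT females, 257 to 436 in KO males and 265 to 458 in KO females, with 1 of 13 called higher (Ly6c2), and 0 of 13 without the 4 libraries. Lyz2, the lysozyme of these cells, was at 33.0, 28.3 and 12.4 CPM in WT males and at 239, 234 and 27.9 CPM in WT females. Csf1r was at 3.81, 0.896 and 2.75 CPM in WT males and at 34.4, 25.3 and 3.25 CPM in WT females. In KO libraries Lyz2 was at 102 to 268 CPM and Csf1r at 11.4 to 46.9 CPM. Neither passed for the average over the titled sexes (Lyz2 1.57, adjusted p = 0.0976; Csf1r 1.98, adjusted p = 0.0528; edgeR). Ccr2, also on this list, made up most of the sum in WT males, at a mean of 122.5 CPM. Its mean was 152.7 CPM in WT females, 93.5 CPM in KO males and 80.1 CPM in KO females. Ccr2 did not pass (log2 fold change -0.65, adjusted p = 0.0673, edgeR), and 11 of the 13 tested markers had a positive fitted value. Adgre1 was not used here. Neutrophil markers were near 0 in WT males (0 to 0.276 CPM summed) and reached 35.9 CPM in KO females, with 4 of 6 tested called higher (2 of 6 without the 4 libraries). Of 3 plasma cell markers tested 1 was higher and 1 lower, and 0 of 3 were called without the 4 libraries. Of 5 markers of natural killer and CD8 T cells none was called by edgeR (2 with an unadjusted p under 0.05, 1 called by DESeq2 and 0 by voom). Over all genes the shares were 1.5% by edgeR, 15.9% at an unadjusted p under 0.05, 4.73% by DESeq2 and 4.36% by voom. No listed marker was at 0 in every library.

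**Figure D4:**
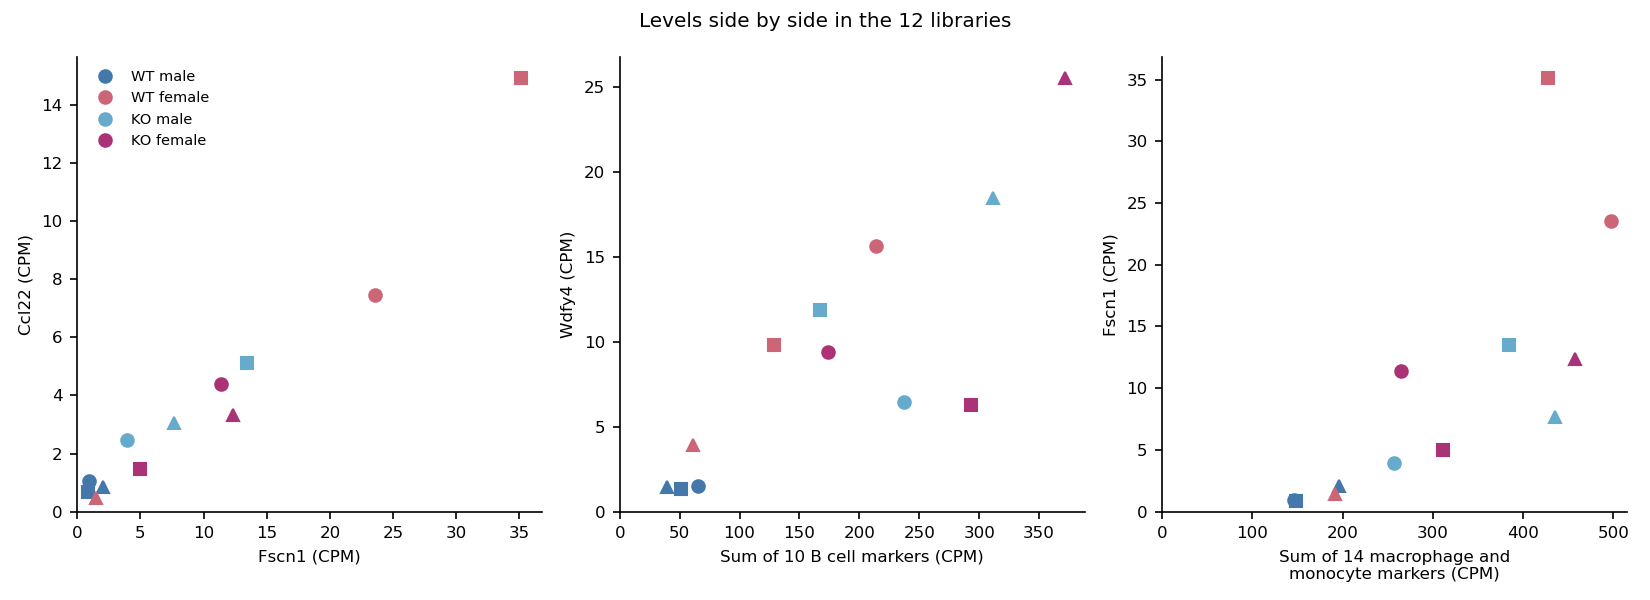
Left, Ccl22 against Fscn1, middle, Wdfy4 against the sum of 10 B cell markers, and right, Fscn1 against the sum of 14 macrophage and monocyte markers, all in CPM, each point 1 library coloured by titled group with shapes for libraries 1 to 3. The WT males and WT female 3 (triangle) sit together at the low end of all 3 panels, and WT female 2 is highest for Fscn1 at 35.1 CPM. The sum in the right panel includes Ccr2, at a mean of 112 CPM over the libraries.

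The list of partners of the members, mainly their ligands, receptors and signalling proteins, held 17 genes, of which 12 reached 1 CPM in every library. Cx3cl1, which is counted in it, encodes a membrane chemokine and lies near Ccl22 on chromosome 8, but is not such a partner of a member. Of the 15 tested, 1 was higher and 1 lower for KO minus WT averaged over the titled sexes (median -0.13), and 0 were called without the 4 libraries. Over all genes edgeR called 1.5% for this average. At an unadjusted p under 0.05 there were 6 of the 15, beside 15.9% of all genes. DESeq2 called 4 and voom 2, beside 4.73% and 4.36% of all genes. Flt3l, which encodes the FLT3 ligand, was at 52.6, 61.0 and 59.2 CPM in WT males and 57.0, 74.0 and 54.4 CPM in WT females. It was at 125, 75.2 and 108 CPM in KO males and 76.1, 95.0 and 79.2 CPM in KO females. All 6 KO libraries lay above all 6 WT libraries, and Flt3l was called higher (log2 fold change 0.64, SE 0.14, adjusted p = 0.0375, edgeR). Actb, the actin that fascin bundles, was called lower (-0.61, SE 0.13, adjusted p = 0.0362, edgeR), from 3056 to 4416 CPM in WT and 1906 to 3190 CPM in KO libraries.

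Ccr4, the receptor for CCL22, averaged 74.3 CPM and did not pass (-0.26, adjusted p = 0.403). Ccl17, the other CCR4 ligand of mature dendritic cells, was at most 0.358 CPM and at 0 in 5 libraries, so it was not tested. Syk, the kinase below dectin-1, was at 0.207 to 36.5 CPM (1.89, adjusted p = 0.124), Card9 averaged 1.48 CPM (-0.30, adjusted p = 0.817), and Bcl10 and Malt1 of the same pathway averaged 87.2 and 155 CPM (adjusted p = 0.405 and 0.266). Itgb2, the beta chain paired with CD11c, averaged 1082 CPM (0.05, adjusted p = 0.91), and Tyrobp, an adaptor of Siglec-H, 6.03 CPM (1.49, adjusted p = 0.0927).

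Irf4 and Irf8, partners of Batf factors, averaged 79.3 CPM (-0.20, adjusted p = 0.658) and 118 CPM (0.25, adjusted p = 0.447). Batf averaged 126 CPM (-0.13, adjusted p = 0.699), Junb 1307 CPM (-0.07, adjusted p = 0.934) and Jun 507 CPM (0.05, adjusted p = 0.949). Cx3cl1 averaged 4.32 CPM (-1.35, adjusted p = 0.052), and every KO library lay below every WT library. The share of all genes with KO and WT libraries separated, as for Flt3l and Cx3cl1, was not computed. All values in parentheses are edgeR log2 fold changes averaged over the titled sexes. Batf2, at 0.199 CPM, was not tested.

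Other genes of dendritic cells gave the following calls for KO minus WT averaged over the titled sexes. Over all genes 15.9% had an unadjusted p under 0.05, and edgeR called 1.5%, DESeq2 4.73% and voom 4.36%. Some listed genes stood far above the members, such as Ltb at 1191, Ccr7 at 421 and Itgae at 135 CPM per kb. Which cells these transcripts came from was not tested. Of 12 tested genes of type 1 conventional dendritic cells none passed in edgeR (median 0.09). At an unadjusted p under 0.05 there were 2, and DESeq2 called 1 and voom 0. The 2 with the smallest p were Cd24a (1.68, adjusted p = 0.0859) and Cd8a (0.83, adjusted p = 0.189). Xcr1, the chemokine receptor that marks them, ran from 0.758 to 4.66 CPM. Clec9a, their receptor for dead cells, was at 0 in 5 libraries and reached 4.21 CPM (44 counts) in KO male 3 and 1.03 CPM in KO female 2, with the others at most 0.269 CPM. Of 11 tested genes of type 2 conventional dendritic cells 1 was lower (Rbpj, the transcription factor of Notch signalling, -0.68, adjusted p = 0.0322, median of the list 0.23). DESeq2 called 3 of these 11, and without the 4 libraries edgeR called 0. Of 19 tested genes of the migratory mature state none passed in edgeR (median 0.08), 6 had an unadjusted p under 0.05, and DESeq2 called 1 and voom 0. Socs2 (-0.43, adjusted p = 0.104) and Nudt17 (0.90, adjusted p = 0.148) had the smallest p. In every library 17 of the 23 listed genes reached 1 CPM.

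Of 13 tested plasmacytoid genes 2 were higher, Ly6c2 (1.97, adjusted p = 0.0227) and Pld4 (1.97, adjusted p = 0.0279). Ly6c2 is also among the monocyte markers listed. The median of the list was 0.51. At an unadjusted p under 0.05 there were 8 of the 13, and DESeq2 called 4 and voom 1. The MHC class II presentation genes all had a positive fitted value (11 of 11, median 1.38), and 5 were higher. These were Cd74, the invariant chain (1.38, adjusted p = 0.0244), H2-Ab1 (1.61, adjusted p = 0.0247), H2-DMb2 (1.45, adjusted p = 0.0279), H2-DMb1 (1.66, adjusted p = 0.0279) and H2-Ob (0.64, adjusted p = 0.0486). At an unadjusted p under 0.05 there were 9 of the 11, and DESeq2 called 9 and voom 2. B cells and macrophages express the MHC class II genes too. Without the 4 libraries these plasmacytoid and MHC class II calls were lost, as were most calls over all genes. Cd74 was at 212, 213 and 198 CPM in WT males, 612, 457 and 204 in WT females, 573, 546.5 and 1003 in KO males, and 519, 750 and 1208 in KO females, so that WT female 3 again lay with the WT males.

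**Figure D5:**
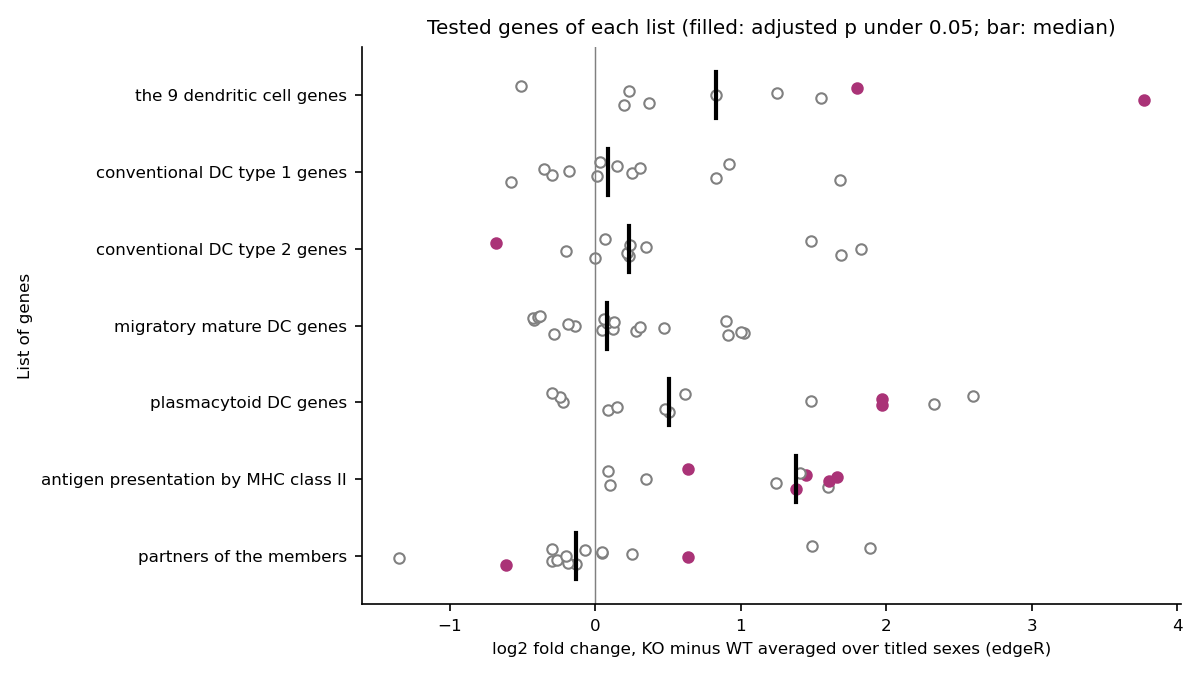
Fitted log2 fold change, KO minus WT averaged over the titled sexes, of every tested gene of the 9 members, the other dendritic cell lists, MHC class II presentation and the partners, with filled points for adjusted p under 0.05 and a bar at each list's median. The median was 0.83 for the members, 1.38 for MHC class II presentation and between -0.13 and 0.51 for the other lists.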

How the data were processed

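Per the labels' protocols, the kits were NucleoSpin XS for RNA, SMART-Seq v4 for cDNA and Nextera XT for sequencing libraries. The authors deposited raw counts per gene symbol for 12 libraries. HISAT2 2.0.5, featureCounts 1.5.0-p2, Subread, edgeR and GRCm38 are named, per the submitters' processing notes. Annotation release and strand counting: not given in the sources used here. A second deposited table held log2 values for 24584 genes, and log2 CPM recomputed with TMM scaling and a prior count of 0.25 matched them to 5e-14.

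Counts were filtered (filterByExpr), scaled by TMM and fitted once with edgeR 4.0.16 (R 4.3.3) as 4 group means over all 12 libraries, with two-sided quasi-likelihood tests and Benjamini-Hochberg adjustment over 13692 genes at 0.05. The common biological coefficient of variation was 29.3%. The steps were tested on simulated data. Alternatives used DESeq2 1.42.0, limma 3.58.1, other scalings and filters, a replicate block and leaving out libraries. CPM use TMM-scaled library sizes, and limits for a count of 0 cover counting error only. WT male 2 and 3 carry the same title number, and no replicate pair held identical values. Positions come from GENCODE M21.

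The 9 genes and all lists were chosen with earlier results of these data known. The genes named were the 9 members, all tested partners, up to 4 passing genes of each other list by smallest p (or 2 where none passed), defining markers of the sorted cell, B cells and macrophages, and the 3 genes most like each member. H2-Ob, Xcr1, Clec9a, Ccl17, Batf2, Esr2, Prdm1, 2010001M09Rik and Ccr2 were named after their values were seen. Values of 1 gene that this rule names are not reported here.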

Additional observations from a re-analysis of the deposited data

How the results depend on the processing

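There were 22 alternatives, 12 of which left out 1 library. For KO minus WT averaged over the titled sexes, 2 members were called. Voom called 1 (Clec7a, of 597 genes), and a filter at an average of 1 CPM 1 (Wdfy4, with Clec7a untested). Summing WT male 2 and 3 gave 0, with 31 genes in all. Both calls were also lost without the 4 libraries against their titled sex, as were most calls over all genes. Leaving out 1 library gave 0 to 2, with 1 without KO male 1 or 3, 2 without KO male 2 or KO female 2, and 0 without any other. Over all genes these fits called 12 to 543. In titled males 0 became 3 with DESeq2 (419 of 13692 genes), 5 with no filter on low counts (443 of 24584 genes), and 0 to 2 on leaving out 1 library (2 without WT female 3, with 49 genes in all, and 2 without KO male 2, with 734). For female minus male in titled WT, 0 became 5 with DESeq2 (30 genes), 2 with voom (348), 5 with no filter (191), and 0 to 3 (3 without WT female 3, with 38 genes). The interaction gave 3 with no filter (106 genes). In females and between KO sexes all gave 0. The cause of these changes was not tested.

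Wdfy4 stayed positive for the average in all 22 alternatives (1.38 to 2.19) and lost its call in 13. Clec7a did so in 21 (2.66 to 3.93) and lost its call in 12. Over all genes the called number for the average was 206, and 9 to 647 under the alternatives. It was 10 in males (0 to 734), and 0 in females (up to 1698, voom) and between KO sexes (up to 324, without KO male 2).

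Without the 4 libraries, signs reversed for Itgax (average -1.97, males -5.37), Siglech (-0.95, -1.61) and Batf3 (males -0.04, females 0.14). In females Flt3 became -0.15 with voom, and Batf3 0.91 on the deposited log2 values. Leaving out 1 library gave ranges across 0 for Batf3 (average -0.27 to 0.74, males -0.07 to 1.81, females -1.28 to 0.53), Siglech (average -0.19 to 0.76), Flt3 (females -0.20 to 0.41) and Wdfy4 (females -0.32 to 1.01). None of these was called.

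With the title number as a replicate block, 0 members were called for the average (Wdfy4 1.51, adjusted p = 0.168; Clec7a 3.93, adjusted p = 0.0906; edgeR) and 9 genes in all, and Batf3 in females was 0.13. The labels do not say what the number marks. Deviations of the 18 same-number pairs correlated at -0.27 to 0.09 (median -0.04), none over 0.1. Those of the 36 other pairs correlated at -0.14 to 0.27 (median -0.01), with 9 over 0.1. Same-number pairs were thus no more alike than the others, and the numbers were not taken to pair libraries.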
